A study of Mus musculus with 44 samples.

Results

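Fabp1-high wells are plate wells of single small intestinal organoid cells, taken on day 0, that held 5 or more Fabp1 unique molecular identifiers (UMIs, the tags that count single captured transcripts). They numbered 159 of the 826 day 0 wells with 1000 or more UMIs. The rule used the Fabp1 count alone, so Fabp1 is given below as a description, and the main comparison was made with the 667 day 0 wells that held fewer than 5. Fabp1-high wells made up 108 of 481 wells on the 3 day 0 plates of the RANKL table and 51 of 345 on the 2 day 0 plates of the RANKL+CSRM617 table. The whole series holds 8231 wells of that depth on 44 plates.

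The organoids came from the small intestine of 1 female mouse of the Lgr5GFPDTR/+ line (line26), in which the Lgr5 gene carries a GFP and diphtheria toxin receptor cassette, and every group shares this allele. They were kept in medium with EGF, Noggin and R-spondin1 (ENR), then received CHIR99021, a GSK3 inhibitor that activates Wnt signalling, at 3 µM with valproic acid at 1.5 mM for 3 days, and ENR alone for 1 day. After that came RANKL, the cytokine that induces M cells, at 100 ng/mL, alone in the RANKL arm or with CSRM617, an inhibitor of the transcription factor Onecut2, at 40 µM in the RANKL+CSRM617 arm. Day 0 carries an arm name in the labels, and each arm has its own count table, so arm and table cannot be told apart. Cells were sorted into plates by light scatter only and sequenced by a modified CEL-Seq2, which counts the 3' ends of transcripts. The labels do not say that the plates of a group came from separate cultures. The p-values below rest on counting error and plate-to-plate spread, technical or not. In the gene tests that spread was estimated with information shared between genes, since each fit holds few plates. Very small p-values therefore do not measure the spread of 1 gene over its plates. The SE beside a log2 fold change is the size of that change divided by the square root of the test's F statistic. It carries the same limit.

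Absorptive enterocytes arise from Lgr5+ stem cells of the crypt, stop dividing and move up the villus. They take up fatty acids, sugars, amino acids, retinol and iron through a brush border of digestive enzymes and transporters, and pack fat with apolipoproteins into chylomicrons. Fabp1, the liver-type fatty acid binding protein, and Fabp2, the intestinal one, carry fatty acids inside the cell, Gstm3 conjugates glutathione to foreign compounds, and Hsd17b13 sits on lipid droplets. Enterocytes of the lower villus make antimicrobial lectins of the Reg family, and those of the tip make Apoa4.

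Fabp1 lies at chr6:71199827-71205023 on the plus strand and Fabp2 at chr3:122895072-122899506 on the plus strand (GRCm38, GENCODE annotation). The 250 bases before each RefSeq start site (GRCm38.p6) are shown because both genes are textbook targets of the intestinal factors HNF4, HNF1 and CDX. The transcripts of Hnf4a and Hnf4g are described below. Capitals mark every match, on either strand, to the core of the HNF4 motif (CAAAGT), of the HNF1 motif (GTTAAT) or the CDX motif (TTTATNG).
Fabp1, chr6:71199629-71199878: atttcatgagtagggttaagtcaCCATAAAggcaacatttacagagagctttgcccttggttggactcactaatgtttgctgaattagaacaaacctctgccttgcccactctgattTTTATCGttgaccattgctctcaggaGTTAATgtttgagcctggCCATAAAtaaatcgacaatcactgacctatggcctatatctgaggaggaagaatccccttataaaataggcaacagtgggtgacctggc
Fabp2, chr3:122894822-122895071: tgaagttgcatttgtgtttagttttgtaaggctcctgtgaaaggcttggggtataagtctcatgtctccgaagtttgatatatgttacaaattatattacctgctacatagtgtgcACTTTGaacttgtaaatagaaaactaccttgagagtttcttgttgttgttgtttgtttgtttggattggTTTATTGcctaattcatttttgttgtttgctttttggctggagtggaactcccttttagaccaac
The Fabp1 window held 3 CDX matches and 1 HNF1 core, and the Fabp2 window held 1 HNF4 core and 1 CDX match. Windows of the same length before the other 2 marker genes, Gstm3 and Hsd17b13, each held 1 HNF4 core. Of all 27025 promoters, 12.5% held an HNF4 core, 6.52% an HNF1 core and 10.2% a CDX match. Among the 897 matched promoters of genes that were higher in the RANKL Fabp1-high wells these shares were 11%, 5.02% and 8.36%, beside 9.90%, 3.93% and 6.33% of the 4252 promoters of genes tested. A match describes letters and is no evidence of binding.

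The RANKL day 0 plates held 229, 26 and 226 wells with 1000 or more UMIs, and the RANKL+CSRM617 plates held 179 and 166. Summed UMIs of the Fabp1-high wells were 299197, 28398 and 326566 on the RANKL plates and 107857 and 84641 on the RANKL+CSRM617 plates, so RANKL plate 2, with 4 such wells, was measured least precisely. The single most abundant gene model, CT010467.1, took 16.3% of the UMIs of Fabp1-high wells on RANKL plate 3 and 33.0% on RANKL+CSRM617 plate 2, against 4.17% to 6.51% on the other 3 plates, with 3.94% to 32.0% in the other wells. Models of satellite-like sequence took 7.15% and 3.28% of the UMIs of the other wells on the RANKL+CSRM617 plates, 0.395% and 0.627% in their Fabp1-high wells, and at most 0.482% in either class of the RANKL plates. No doublet caller was run, and no well exceeded 3 times the median UMIs of its plate. No full well name was shared between plates.

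Among the RANKL plates, 22.3% of wells on plate 1 (51 of 229, exact binomial 95% interval 17.1% to 28.2%), 15.4% on plate 2 (4 of 26, 4.36% to 34.9%) and 23.5% on plate 3 (53 of 226, 18.1% to 29.5%) were Fabp1-high. On the RANKL+CSRM617 plates the share was 15.1% (27 of 179, 10.2% to 21.2%) and 14.5% (24 of 166, 9.49% to 20.7%). The intervals cover counting error only. Both RANKL+CSRM617 shares lay below the lowest RANKL share, and the mean share was 20.4% ± 4.36 (SD, n = 3 plates) against 14.8% ± 0.443 (SD, n = 2 plates). The difference of -5.60 percentage points gave p = 0.2 in a two-sided exact permutation test, in which 3 against 2 plates allow no p under 0.1.

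Most Fabp1 transcripts of day 0 lay in these wells, by construction of the rule. They held 94.2% of all Fabp1 UMIs of the RANKL day 0 wells and 94.1% of those of the RANKL+CSRM617 day 0 wells. The median Fabp1-high well held 19, 29.5 and 15 Fabp1 UMIs on RANKL plates 1, 2 and 3, with highest wells of 131, 37 and 99. On the RANKL+CSRM617 plates the medians were 29 and 16.5 and the highest wells 113 and 45. Of the 667 other wells, 496 held no Fabp1 UMI and 171 held 1 to 4.

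**Figure D1:**
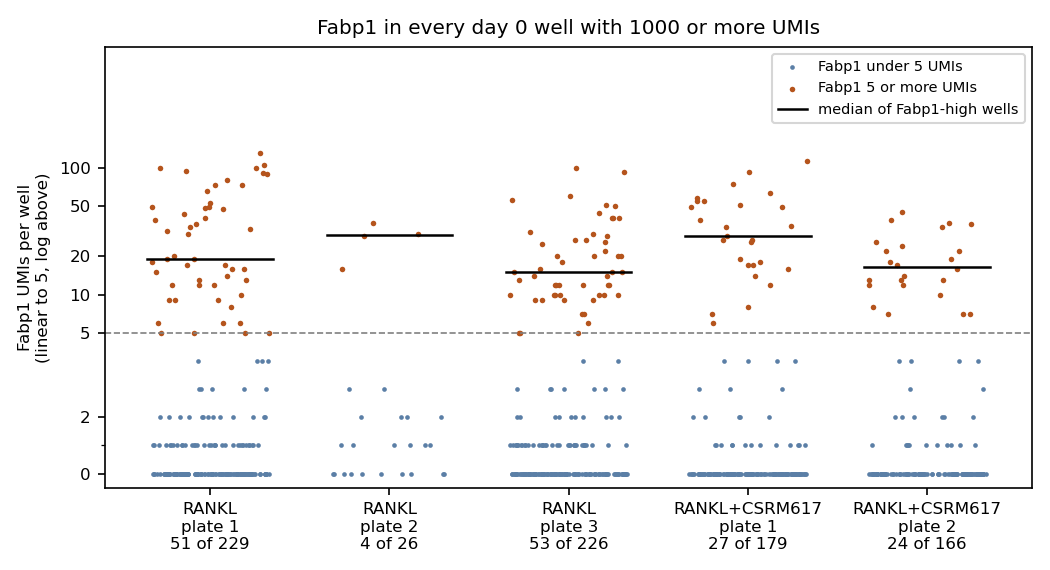
Fabp1 UMIs per well (vertical axis, linear up to 5 and logarithmic above) on each of the 5 day 0 plates (horizontal axis), 1 point per well, with the rule's threshold of 5 UMIs as a dashed line and the median of the Fabp1-high wells as a black line. The medians lie between 15 and 29.5 UMIs, and the wells form a continuous range across the threshold.

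In the RANKL table the wells nearest the threshold had like levels of Gstm3 and Olfm4. The 11 wells with 5 or 6 Fabp1 UMIs held 1741 CPM of Gstm3 (CPM are a gene's UMIs scaled to a common total, here over all UMIs but Fabp1 with plates pooled), and the 20 wells with 3 or 4 held 1800. Alpi, which encodes intestinal alkaline phosphatase of the brush border, was at 2045 CPM just inside the threshold and 1492 just outside, and the stem cell marker Olfm4 at 118 and 106. Only 1 RANKL+CSRM617 well lay just inside and 13 just outside.

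Because the rule works on raw UMIs, depth stands beside it. The median Fabp1-high well held 5902, 7311.5 and 6544 UMIs on the RANKL plates against 4346.5, 6292 and 4876 in the other wells, and 4235 and 3236 against 2936.5 and 2466 on the RANKL+CSRM617 plates. The Fabp1-high wells were deeper on 5 of 5 plates, by a mean log2 ratio of 0.40 ± 0.11 (SD, n = 5 plates; two-sided exact sign-flip permutation p = 0.062, the smallest that 5 plates allow). With every well thinned to 1000 UMIs and Fabp1 left out, they showed fewer genes per well on 5 of 5 plates, with medians of 702, 679, 643, 680 and 531 against 750, 726, 704, 724 and 571. The mean difference was -48 genes ± 7.91 (SD, n = 5 plates; two-sided exact sign-flip permutation p = 0.062).

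The label of enterocyte-like wells was checked against markers. Gstm3 was at 2688, 2454 and 2291 CPM (from here on per class and plate, with Fabp1 left out and scaled by the trimmed mean of M values) in the Fabp1-high wells of RANKL plates 1, 2 and 3 and at 537, 251 and 515 in the other wells. Fabp2 stood at 1528, 1332 and 1203 CPM against 295, 186 and 208, and Hsd17b13 at 757, 596 and 769 CPM against 209, 227 and 252. In each such pair the values are in plate order, Fabp1-high wells before the word against and other wells after it, here and below. On every RANKL plate these 3 markers were higher in the Fabp1-high wells, and no plate values overlapped between the classes. In the RANKL+CSRM617 table Gstm3 was at 2961 and 1175 CPM against 182 and 139.9 and Fabp2 at 716 and 579.7 against 94.6 and 98.6, but Hsd17b13 had only 7 UMIs in either class. These 3 genes were picked with earlier results of these data in view, so their values are descriptive.

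A list of 8 general enterocyte markers (Alpi, Apoa1, Apoa4, Sis, Krt20, Vil1, Anpep and Dpp4) summed to 10362 to 13311 unscaled CPM over the RANKL plates in the Fabp1-high wells and to 2297 to 2784 in the other wells. The RANKL+CSRM617 sums were 3568 to 6434 against 481 to 542. The 4 stem cell markers (Lgr5, Olfm4, Ascl2 and Smoc2) summed to 237 to 317 unscaled CPM in the RANKL Fabp1-high wells and 1591 to 2101 in the others. Among markers of other cell types, Muc2 (goblet), Defa17 and Defa24 (Paneth), Chga and Chgb (enteroendocrine), Avil, Dclk1 and Trpm5 (tuft), Gp2 and Spib (M cell), and Cd3e, Cd74, Ptprc, Col1a1 and Vim (immune and stromal) had no UMI in the 108 RANKL wells. Of these, Avil, Dclk1, Trpm5, Gp2, Spib, Cd3e, Cd74, Col1a1 and Vim also had none in the 373 other wells, and Muc2 and Ptprc had 1, so their zeros do not set the classes apart. Defa17, Defa24, Chga and Chgb had 10, 61, 9 and 10 UMIs in the other wells. A count of 0 allows up to 2.78% of those wells to hold a UMI, and it covers counting error only. A single Fabp1-high well in each table held 3 or more goblet marker UMIs.

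Fabp1-high wells differed from the other wells of their plates across much of the transcriptome. In RANKL, 2067 of 5277 genes tested (39.2%) passed, 1089 (20.6%) higher and 978 (18.5%) lower, by edgeR's quasi-likelihood test on UMIs summed per class and plate, with the plate as a block and Benjamini-Hochberg adjusted p under 0.05. In RANKL+CSRM617, 994 of 4265 genes (23.3%) passed, 507 (11.9%) higher and 487 (11.4%) lower. Since the classes were cut on Fabp1, these tests say which genes went with Fabp1 between wells and do not show that the wells form a discrete class. Scaling by library size alone gave 2357 genes in the RANKL table with 31.7% of them higher, and moved the median of all genes from -0.01 to -0.27 on the log2 scale. Counts without RANKL plate 1 and without RANKL plate 3 fell to 763 and 810 genes. A fit without 1 RANKL+CSRM617 plate held the other plate of that table beside the 3 RANKL plates. Wells thinned to 1000 UMIs gave 387 for RANKL and 219 for RANKL+CSRM617, 63.5% of them higher. DESeq2 called 989 genes for RANKL and 222 for RANKL+CSRM617, 160 higher and 62 lower.

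The rule for named genes gave 15 rises, among them Gda, Apoa4, G6pc, Leap2, Ifit1bl2, Reg1, Cyp2b10, Apoa1, Cyp3a25, 2010106E10Rik, Ephx2, Ces1d, Apoc3 and Mep1b, and 10 falls, Nek2, Pfas, Hirip3, Cdca7, Hist1h2ap, Knstrn, Ccnb1, Uhrf1, Pola1 and Knl1. For all 25 the RANKL plate values of the 2 classes did not overlap. The rule took the largest called changes with the same direction on every RANKL plate, so it left little room for overlap. The share of all tested genes without overlap is not given here, so the 25 have no background to be set against. Of the rises, 13 were tested in the RANKL+CSRM617 table and 13 passed there in the same direction, and of the falls 6 were tested and 6 passed. The rises hold apolipoproteins, sugar and drug metabolizing enzymes and antimicrobial peptides, and the falls hold genes of DNA replication and mitosis.

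**Figure D2:**
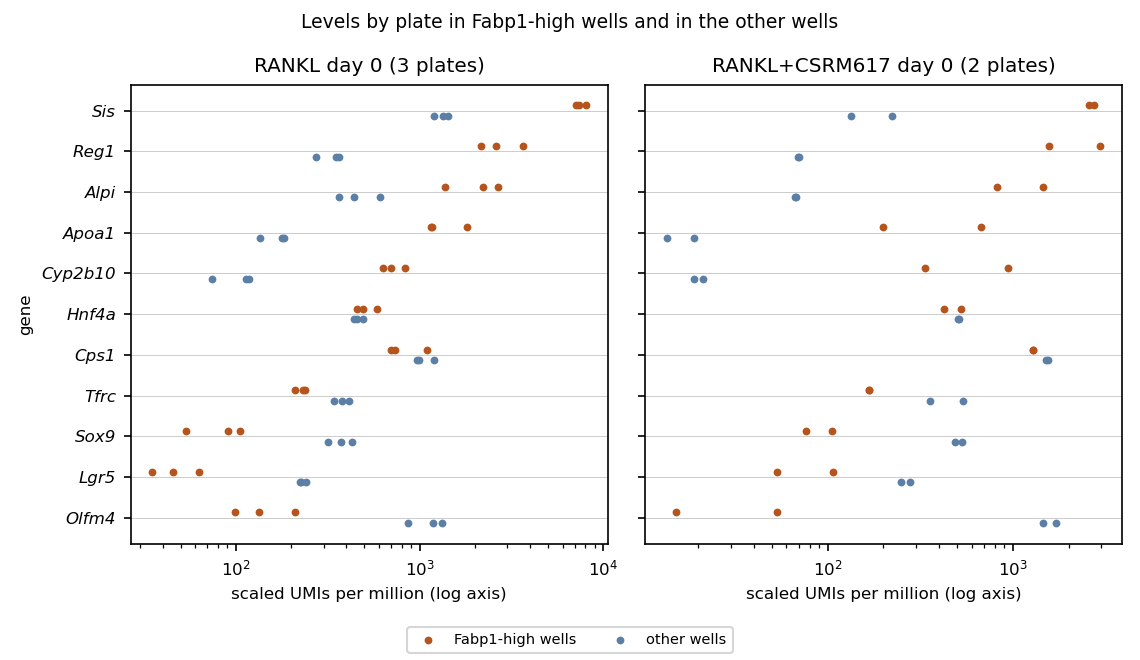
Scaled CPM on a log axis (horizontal) for 11 genes (vertical) in the Fabp1-high and the other wells, 1 point per plate, for the 3 RANKL and the 2 RANKL+CSRM617 day 0 plates. Absorptive genes such as Sis and Apoa1 lie higher in the Fabp1-high wells on every plate, Olfm4, Lgr5 and Sox9 lie lower, and Hnf4a and Cps1 lie at like levels.

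Genes of lipid absorption were higher almost throughout. In RANKL, 17 of 18 tested passed upwards and none downwards, with a median log2 fold change of 1.90 beside -0.01 for all genes, and in RANKL+CSRM617, 14 of 16 passed upwards, with a median of 2.40 beside -0.05. Apoa4, an apolipoprotein of chylomicrons, was at 338, 1122 and 402 CPM in the Fabp1-high wells of RANKL plates 1, 2 and 3 and 21.7, 24.3 and 44.8 in the others. Plate 2 was the highest, and the lowest Fabp1-high value exceeded every other-well value, for a log2 fold change of 3.71 (SE 0.23, adjusted p = 2.13e-56). Apoa1, the main protein of high density lipoprotein, was at 1148, 1823 and 1175 CPM against 135, 178 and 182, a log2 fold change of 2.94 (SE 0.14). Its RANKL+CSRM617 values of 672 and 198 CPM against 13.5 and 19.1 gave 4.84 (SE 0.44), again with no overlap. Mttp, which loads lipid onto apolipoprotein B and was named after its values were seen, held 2053, 2349 and 2255 CPM against 450.1, 421 and 549 in RANKL and 1458 and 1479.8 against 205 and 248 in RANKL+CSRM617. Acat2, a cytosolic thiolase that feeds sterol synthesis rather than fat uptake, was the member that did not pass in RANKL, with a log2 fold change of 0.03 (SE 0.17, adjusted p = 0.919).

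The other fatty acid binding proteins were nearly absent. Fabp3 and Fabp6, the ileal bile acid binder, had no UMI in the 108 RANKL wells, and Fabp5 had 2 UMIs there against 33 in the other wells.

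Sugar handling rose with Fabp1 as well. All 7 tested genes of carbohydrate absorption passed upwards in the RANKL table (median log2 fold change 1.91) and all 5 in the RANKL+CSRM617 table (2.64). Sis, the sucrase-isomaltase of the brush border, was at 8052, 7118 and 7341 CPM against 1349, 1199 and 1425 in the RANKL table, a log2 fold change of 2.49 (SE 0.14, adjusted p = 2.51e-65). The RANKL plates were tightly grouped within each class for Sis. In the RANKL+CSRM617 table Sis was at 2748 and 2563 CPM against 133 and 223, and its log2 fold change was 3.96 (SE 0.19). The sodium-glucose cotransporter Slc5a1 was at 1114, 1963 and 1088 CPM against 280.4, 340.3 and 350.2. G6pc, which releases free glucose, held 224, 210.4 and 201 CPM against 16.8, 16.2 and 14.5 in RANKL, and 8 UMIs against 0 in RANKL+CSRM617, at least 12.4-fold higher when 3 UMIs over the group are taken as the floor. All 8 of those UMIs came from plate 1.

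Brush border genes passed upwards in 11 of 14 cases in RANKL (median log2 fold change 1.46) and 9 of 15 in RANKL+CSRM617 (1.58), and none passed downwards. Alpi was at 2228, 1367 and 2669 CPM against 439, 365 and 611 on the RANKL plates (log2 fold change 2.20, SE 0.13) and at 1449 and 824 against 67.6 and 66.8 on the RANKL+CSRM617 plates (4.12, SE 0.25). The peptidases Mep1b and Enpep were higher too, with log2 fold changes of 2.81 and 2.38 in RANKL. Dpp4, another brush border peptidase, named after its values were seen, gave 57, 70.1 and 43.4 CPM against 32.5, 72.9 and 49.7, so the classes overlapped (log2 fold change 0.27, SE 0.37, adjusted p = 0.603). Krt20, the keratin of mature enterocytes, was at 521, 631 and 556 CPM against 118, 162 and 176 in RANKL and 212 and 198 against 7.73 and 6.36 in RANKL+CSRM617.

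Of 19 tested genes of fatty acid oxidation and its PPAR control, 17 passed upwards in RANKL (median log2 fold change 1.31), and 14 of 16 did so in RANKL+CSRM617 (1.61). Creb3l3, a membrane-bound factor that drives lipid genes, was at 928, 806 and 1128 CPM in the Fabp1-high wells of the RANKL plates against 205, 122 and 241 in the others. Its classes did not overlap (log2 fold change 2.24, SE 0.14). The lipid droplet genes passed upwards in 4 of 5 cases in RANKL and 2 of 2 in RANKL+CSRM617. Plin2, a droplet coat protein, rose by a log2 fold change of 2.22 in RANKL (SE 0.22), and Hsd17b11, the close relative of Hsd17b13, by 1.89 (SE 0.15).

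Most of the tested retinoid genes rose. Of 8 tested genes 7 passed upwards in RANKL, and 5 of 6 did so in RANKL+CSRM617 (median log2 fold changes 1.54 and 2.47). Among them was Rbp2, the retinol carrier of enterocytes, at 133, 105 and 169.5 CPM against 16.8, 32.4 and 32.7. Aldh1a1, which makes retinoic acid, was at 1996, 1718 and 2129 CPM against 438, 292 and 401 in RANKL and 2748 and 1358 against 201 and 134 in RANKL+CSRM617, and neither table had overlapping classes. Stra6l, a retinol transporter, was the 1 member that passed downwards in RANKL, at 7.6, 0 and 7.89 CPM against 36.1, 72.9 and 35.1 (log2 fold change -2.31, SE 0.66, adjusted p = 0.00202), from 4 UMIs against 68.

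Amino acid and iron transport also moved. Of 6 tested amino acid transporters 4 passed upwards in RANKL, and 3 of 4 in RANKL+CSRM617. Slc6a19, the main neutral amino acid transporter of the brush border, had a log2 fold change of 2.29 in RANKL (SE 0.36) and 3.22 in RANKL+CSRM617 (SE 0.70). Of 10 tested genes of iron, minerals and metallothioneins, 8 passed upwards in RANKL. Slc40a1, the iron exporter ferroportin, was at 236, 351 and 268 CPM against 54.2, 64.8 and 67.9, and the ferritin heavy chain Fth1 at 10482, 11570.5 and 12659.9 against 3408, 3954 and 4417. Tfrc, the transferrin receptor of dividing cells, which was named after its values were seen, passed in the opposite direction, at 232, 210.4 and 237 CPM against 377, 413 and 341 (log2 fold change -0.64, SE 0.17). The divalent metal transporter Slc11a2 passed the test at 487, 70.1 and 398 CPM against 98.7, 64.8 and 124, but plate 2 of the Fabp1-high wells overlapped the other wells.

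Drug and glutathione metabolism was the list with the most higher genes in RANKL. There 32 of 35 tested genes passed upwards and none downwards (median log2 fold change 1.66), and 30 of 34 passed upwards in RANKL+CSRM617 (2.69). Cyp2b10, a cytochrome P450 induced by foreign compounds, was at 699.5, 631 and 832 CPM against 74.6, 113 and 118 in RANKL and 937 and 336 against 21.2 and 19.1 in RANKL+CSRM617. No plate of one class reached the other, with log2 fold changes of 2.95 (SE 0.16) and 5.03 (SE 0.37). Cyp3a25 and Ephx2, an epoxide hydrolase, gave 2.94 and 2.86 in RANKL. Gstm3 belongs to this list and to the markers that were picked with results known.

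Antimicrobial genes of the lower villus were higher. All 5 tested passed upwards in RANKL (median log2 fold change 1.44), and all 7 in RANKL+CSRM617 (2.78). Reg1, a secreted lectin, was at 2156, 2595 and 3643 CPM against 272, 365 and 351 in RANKL and 2961 and 1571 against 69.5 and 69.9 in RANKL+CSRM617. Reg3g, which binds bacterial peptidoglycan, was at 1076, 1473 and 2263 CPM against 164, 299.8 and 333 and 4728 and 2243 against 577 and 417. The log2 fold change was 3.14 (SE 0.14) and 5.05 (SE 0.22) for Reg1, and 2.69 (SE 0.14) and 2.78 (SE 0.16) for Reg3g. Leap2, a liver and gut peptide that opposes ghrelin, was higher by 3.29 in both tables. Of 7 tested villus tip genes 4 passed upwards and 1 downwards in RANKL, the latter being the growth factor receptor Egfr (log2 fold change -1.56, SE 0.62). Genes of both ends of the villus were therefore higher in the same class of wells.

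Interferon-stimulated and MHC class I genes were higher in RANKL: 9 of 10 and 6 of 6 tested genes passed upwards, with median log2 fold changes of 1.82 and 1.06. Isg15, a ubiquitin-like modifier, was at 60.8, 105 and 98.6 CPM against 6.02, 0 and 26.7. Ifit3, which binds foreign RNA with its partners, was at 365, 35.1 and 225 CPM against 24.1, 56.7 and 55.7. Plates 1 and 3 were high and plate 2 was below 2 of the 3 other-well values, so the classes overlapped although the gene passed (log2 fold change 2.73, SE 0.25). That plate 2 value rested on 1 Ifit3 UMI. Few of these genes could be tested in RANKL+CSRM617, where Ifit3 had 0 UMIs in the Fabp1-high wells and 1 in the others. Ifi27l2b was the 1 interferon gene tested there, at 495 and 427 CPM against 326 and 184 (log2 fold change 0.83, SE 0.26). Of 4 MHC class I genes tested in RANKL+CSRM617, 2 passed upwards and 2 did not pass. B2m, the light chain of MHC class I, gave 1.33 in RANKL (SE 0.18) and 1.43 in RANKL+CSRM617 (SE 0.42).

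Lineage transcription factors moved in both directions. Of 17 tested in RANKL, 7 passed upwards and 5 downwards (median log2 fold change 0.27), and of 18 in RANKL+CSRM617, 4 and 2. Of all genes tested, 20.6% and 18.5% did so in RANKL and 11.9% and 11.4% in RANKL+CSRM617. Hnf4a, the main activator of enterocyte genes, was named after its values were seen and stood at 490.4, 456 and 584 CPM in the Fabp1-high wells of RANKL and 459, 438 and 492 in the others, which overlapped. Its log2 fold change was 0.16 (SE 0.14, adjusted p = 0.379) in RANKL and -0.08 (SE 0.23, adjusted p = 0.87) in RANKL+CSRM617, and the RANKL value became -0.10 with scaling by library size alone. Its paralog Hnf4g passed the test in both tables. Hnf4g was at 243, 35.1 and 359 CPM against 68.6, 48.6 and 93.3 in RANKL, with plates 1 and 3 above and plate 2 below all values of the other wells (log2 fold change 1.83, SE 0.22), and at 159 and 198 against 29 and 63.6 in RANKL+CSRM617 (2.04, SE 0.45). The RANKL plate 2 value of the Fabp1-high wells rested on 1 Hnf4g UMI. Sox9, a factor of crypt progenitors, was lower on every plate of both tables, at 53.2, 105 and 90.7 CPM against 374, 316 and 429 in RANKL. The bile acid receptor Nr1h4 was higher, by 1.30 in RANKL (SE 0.31) and 2.49 in RANKL+CSRM617 (SE 0.52).

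Stem cell and Wnt target genes were lower. In RANKL 15 of 16 tested passed downwards and none upwards (median log2 fold change -2.10), and 9 of 13 passed downwards in RANKL+CSRM617 (-2.41). Olfm4, a secreted marker of crypt base stem cells, was at 98.8, 210.4 and 134 CPM in the Fabp1-high wells of RANKL against 867, 1329 and 1183, and at 53 and 15.3 against 1452 and 1711 in RANKL+CSRM617. Its log2 fold change was -3.09 (SE 0.19) and -5.30 (SE 0.32). Lgr5, the R-spondin receptor that marks stem cells and carries the reporter allele here, was at 45.6, 35.1 and 63.1 CPM against 239.5, 227 and 223 in RANKL and 53 and 107 against 278 and 248 in RANKL+CSRM617. The classes did not overlap for either gene, and neither was at 0 in the Fabp1-high wells. Myc, a Wnt target and growth regulator named after its values were seen, was lower by a log2 fold change of -1.12 in RANKL (SE 0.19).

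With each well thinned to 1000 UMIs, 1.85% of the RANKL Fabp1-high wells and 20.4% of the other wells held a Lgr5 UMI, and 7.41% and 32.7% held an Olfm4 UMI. Without thinning the shares were 24.1% and 52.8% for Lgr5, and 42.6% and 54.7% for Olfm4, at median depths of 6238.5 and 4688 UMIs. Thinned RANKL+CSRM617 wells gave shares of 7.84% and 23.1% for Lgr5 and 1.96% and 30.3% for Olfm4. For Sis the order was the opposite, with UMIs in 94.4% of thinned Fabp1-high wells and 48.3% of the others in RANKL, and in 76.5% and 13.9% in RANKL+CSRM617. Dpp4, a sparser member of the enterocyte list, was in 3.70% and 5.63% of the thinned RANKL wells. Nearly every RANKL Fabp1-high well thus held Sis transcripts even at 1000 UMIs.

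Every tested cell cycle gene passed downwards, 25 of 25 in RANKL (median log2 fold change -3.18) and 23 of 23 in RANKL+CSRM617 (-3.42, or -3.34 with genes at 0 set to their bound). Mki67, a nuclear protein of dividing cells, was at 15.2, 0 and 11.8 CPM against 196, 154 and 199.9 in RANKL and 8.84 and 91.5 against 222 and 362 in RANKL+CSRM617, where plate 2 held most of the UMIs. Nek2, a centrosome kinase, had no UMI in the RANKL Fabp1-high wells and 104 in the others, at least 10.6-fold lower with 3 UMIs over the group as the floor. Pfas, of purine synthesis, and Hirip3, a histone chaperone, were likewise at 0, at least 9.7-fold and 8.68-fold lower. Cdca7, a target of Myc and E2F, had 3 UMIs against 393, so that it was 40.1 times lower (exact 95% interval 13.6 to 195, counting error only). Genes of cell cycle exit went the other way, with 5 of 6 passing upwards in RANKL and 3 of 6 in RANKL+CSRM617. Cdkn1a, the inhibitor p21, was at 966, 912 and 1305 CPM against 256, 227 and 396 in RANKL, with a log2 fold change of 1.82 (SE 0.14), and at 760.0 and 686 against 207 and 245 in RANKL+CSRM617.

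Genes of secretory cells were lower in RANKL. All 3 tested Paneth genes and all 3 tested goblet genes passed downwards in RANKL, with median log2 fold changes of -3.13 and -2.88. In RANKL+CSRM617 all 4 tested Paneth genes passed downwards (median -4.01, or -2.47 with the gene at 0 set to its bound), but 2 of 4 goblet genes did (median -1.54). Agr2, a disulfide isomerase needed for mucus, was at 7.6, 0 and 19.7 CPM against 97.5, 129.7 and 90.9 in RANKL and 0 and 30.5 against 98.5 and 146 in RANKL+CSRM617. Tff3, the goblet trefoil peptide, was at 7.6, 35.1 and 23.7 CPM against 209, 316 and 111 in RANKL, with no overlap. In RANKL+CSRM617 it was at 8.84 and 595 against 382 and 407. A single well of plate 2 held 38 of the 40 Tff3 UMIs of the Fabp1-high wells and also 18 of their 20 UMIs of Fcgbp, another goblet gene. Tff3 passed downwards there (log2 fold change -0.81, SE 0.28). It stood at 0.39 with plate 1 left out, in a fit of plate 2 beside the 3 RANKL plates. Lyz1, the Paneth lysozyme, was at 3.8, 35.1 and 3.94 CPM against 106, 81 and 10.9 in RANKL, where plate 2 of the Fabp1-high wells overlapped the others through a single UMI.

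Housekeeping groups had smaller medians. Of 68 tested ribosomal protein genes, 27 passed downwards and none upwards in RANKL (median log2 fold change -0.40), and 1 of 57 did in RANKL+CSRM617. Of 75 genes of oxidative phosphorylation, 19 (25.3%) passed upwards in RANKL (0.24) and 9 of 70 (12.9%) in RANKL+CSRM617. Those shares are near the 20.6% and 11.9% of all genes tested that passed upwards. Cholesterol synthesis genes passed upwards in 11 of 17 and 5 of 15 cases. In the arginine and urea list 5 of 6 genes passed upwards in RANKL, led by Arg2, a mitochondrial arginase, at 141, 175 and 126 CPM against 20.5, 8.1 and 20.6. Cps1, the first enzyme of the urea cycle, was the exception and was named after its values were seen, at 1095, 701 and 737 CPM against 1199, 997 and 971 (log2 fold change -0.28, SE 0.14, adjusted p = 0.0846). Of 11 immediate early genes, which mark dissociation stress among other things, 3 passed upwards and 1 downwards in RANKL. Of all genes tested there, 20.6% passed upwards and 18.5% downwards.

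The 2 tables share no wells, and 4015 genes were tested in both. Of these, 872 were higher in the Fabp1-high wells in RANKL and 487 in RANKL+CSRM617, and 437 in both, which is 50.1% of the first list and 89.7% of the second. Lower genes numbered 812 and 447, with 380 in both, 46.8% and 85.0%. No gene passed in opposite directions. Across all 4015 genes the sign was the same for 78.7%.

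**Figure D3:**
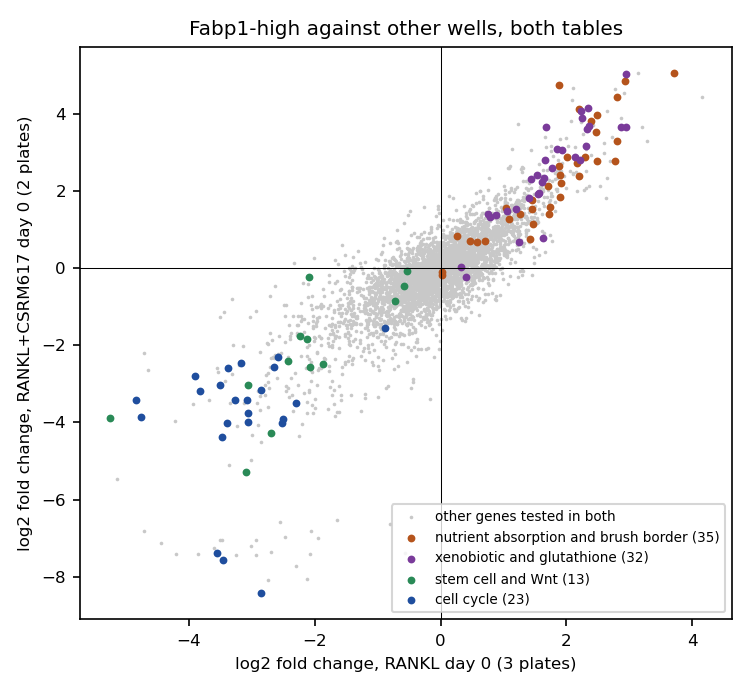
Log2 fold change of Fabp1-high against other wells in RANKL (horizontal axis) and RANKL+CSRM617 (vertical axis), 1 point per gene tested in both, with 4 gene groups in colour. Absorptive and drug metabolism genes lie at the upper right and stem and cell cycle genes at the lower left, and the few points near the bottom are genes with 0 UMIs in the RANKL+CSRM617 Fabp1-high wells, whose fitted values are no bounds.

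Fabp1 was graded, and in RANKL other genes were graded with it. Pooled over RANKL plates, wells with 0 (250 wells), 1 to 4 (123), 5 to 9 (21), 10 to 19 (37) and 20 or more (50) Fabp1 UMIs held 945, 2181, 3608, 5582 and 7981 unscaled CPM of Sis. Apoa1 rose at every step, from 120 to 232, 499, 625 and 1422 CPM. Gstm3 went from 299 and 905 below the threshold to 1825, 1904 and 2296 above it, so most of its climb lay below 10 Fabp1 UMIs. Reg1 stood at 3121 CPM in the wells with 10 to 19 and at 2329 with 20 or more. That order was clear on plate 3 (3791 and 2246), slight on plate 1 (2351 and 2268), and the other way on plate 2 (414 in 1 well and 3374 in 3). Olfm4 descended from 1225 to 637, 152 and 63.0 CPM, then stood at 107. Hnf4a stayed between 373 and 524 CPM in all 5 bands. The steps were less regular in RANKL+CSRM617, where the bands above the threshold held 7, 18 and 26 wells with 1937, 996 and 3481 CPM of Sis and 323, 79.0 and 715 of Apoa1. These values share wells with the rule and depth differs between bands, so they are descriptive.

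**Figure D4:**
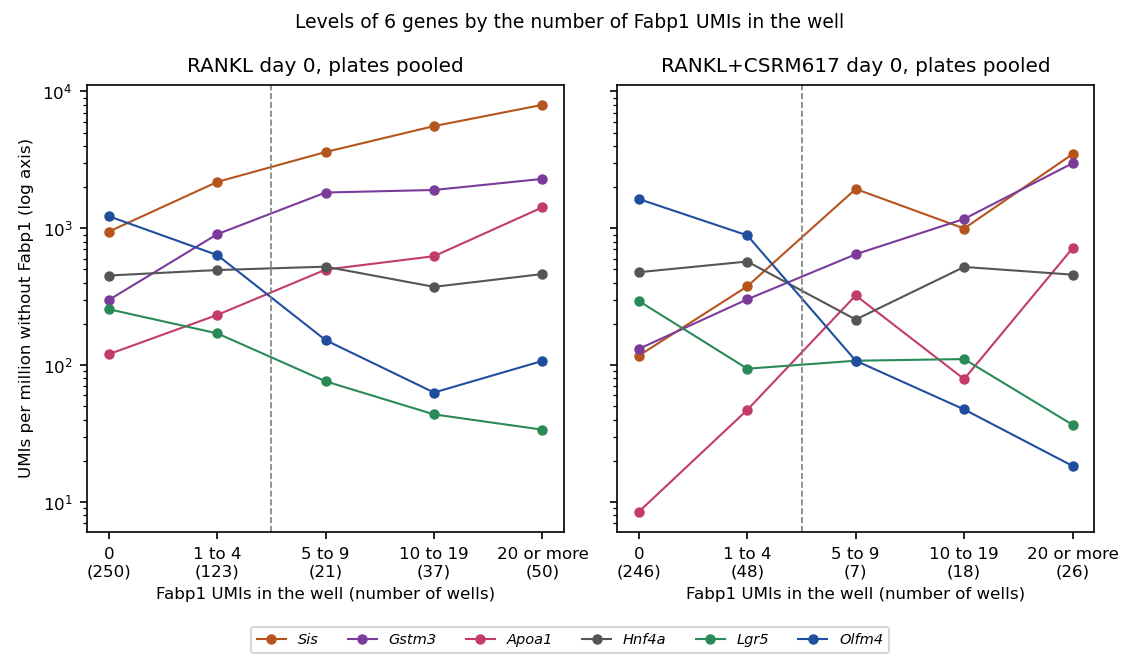
Unscaled CPM (vertical log axis, Fabp1 left out, plates pooled) of 6 genes in wells grouped by Fabp1 UMIs (horizontal axis: 0, 1 to 4, 5 to 9, 10 to 19, 20 or more), for the RANKL and the RANKL+CSRM617 day 0 plates. In RANKL Sis and Apoa1 climb across the bands, Lgr5 descends, Olfm4 descends to 63.0 and stands at 107 in the last band, and Hnf4a lies at 373 to 524, while in RANKL+CSRM617 Sis and Apoa1 are lower at 10 to 19 than at 5 to 9 Fabp1 UMIs.

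Single wells varied within the class. In RANKL 107 of the 108 Fabp1-high wells lay above the median of the other wells in their share of lipid absorption transcripts, and 108 of 108 did for drug metabolism, while 107 of 108 lay below it for stem and for cell cycle transcripts. For interferon genes 94 of 108 lay above. Among housekeeping groups, 98 of 108 lay below for ribosomal protein genes and 59 of 108 above for oxidative phosphorylation. The lipid list holds Fabp2 and the drug list Gstm3, markers that were picked with results known. In RANKL+CSRM617 51 of 51 lay above for lipid absorption and 50 of 51 below for stem and for cell cycle transcripts. A single RANKL+CSRM617 well of plate 2 held 13 Top2a and 5 Mki67 UMIs. Cycling markers (Mki67, Top2a and Pcna) were not absent from the class. In RANKL 68 of 108 Fabp1-high and 265 of 373 other wells held 3 or more of their UMIs, without thinning and at median depths of 6238.5 and 4688 UMIs. Most of these UMIs in the RANKL Fabp1-high wells were Pcna, with 320 beside 48 of Top2a and 7 of Mki67. The 3 markers summed to 558 to 775 unscaled CPM over the RANKL plates in the Fabp1-high wells and to 1630 to 2125 in the others. In RANKL+CSRM617 10 of 51 and 151 of 294 did. Across RANKL wells of the class the lipid and carbohydrate shares had a Spearman correlation of 0.77, and drug and retinoid metabolism 0.78; the wells share plates and depth, and no test was made. The secreted products were less even: the 5 wells richest in Reg1 held 28.2% of its UMIs in RANKL and 75.8% in RANKL+CSRM617. In RANKL 48 Fabp1-high wells held both Apoa4 and Reg1 UMIs, 20 held Apoa4 only, 28 Reg1 only and 12 neither, without thinning.

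The difference between Fabp1-high and other wells was itself compared between the tables. Of 6222 genes, 36 (0.579%) passed edgeR's quasi-likelihood test of the interaction, 31 (0.498%) with a larger log2 difference in RANKL+CSRM617 and 5 (0.0804%) with a smaller one. DESeq2 called 14, wells thinned to 1000 UMIs 9, and the count was 3 without RANKL+CSRM617 plate 1, 19 without plate 2, and 22 and 18 without RANKL plates 1 and 3. Levels in the next sentences are on the scale fitted over both tables. Reg3b, an antimicrobial lectin, was at 14.1, 0 and 48.1 CPM in the Fabp1-high wells of RANKL against 12.6, 0 and 56.7 in the others, and at 858 and 648 against 73.9 and 49.3 in RANKL+CSRM617. The log2 difference of differences was 3.73 (adjusted p = 8.13e-10). A single other well of RANKL held 43 of the 60 Reg3b UMIs of its class, and Reg3b was found in 10.2% of the RANKL Fabp1-high wells and 2.95% of the others. Without that well, a setting chosen after seeing the data, the value was 1.99 (adjusted p = 0.245), and without RANKL plate 3 it was 3.43 (adjusted p = 0.0647). Reg3b thus lost its call in both settings. Krt20 differed by 2.93, with 7.99 and 6.58 CPM in the other wells of RANKL+CSRM617 and 112, 150.2 and 168 in those of RANKL. Its Fabp1-high wells held 224 and 206 CPM in RANKL+CSRM617 and 484, 561 and 522 in RANKL. Sis, Alpi, Apoa1, Reg1 and Cyp2b10 also passed, with larger differences in RANKL+CSRM617 by 1.53, 1.99, 2.03, 2.00 and 2.17. They were named after their values were seen. In pooled wells with no Fabp1 UMI each of them was lower in RANKL+CSRM617, such as Sis at 117 unscaled CPM against 945. With 20 or more, Sis, Alpi and Apoa1 were also lower there, and Reg1 and Cyp2b10 were higher. A larger difference thus does not by itself mean a higher level in the Fabp1-high wells. Among drug metabolism genes 8 of 35 passed upwards and none downwards (median 0.88 beside 0.04 for all genes). Tff3 passed at 2.57, but stood at -2.02 without RANKL+CSRM617 plate 2 and at -1.12 without the wells that held 3 or more goblet UMIs, a setting chosen after seeing the data.

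Fabp1-high wells of the 2 tables were also set against each other directly. There 173 of 2394 genes (7.23%) passed, 34 (1.42%) higher and 139 (5.81%) lower in RANKL+CSRM617. DESeq2 called 72, thinned wells 37, and leaving out RANKL+CSRM617 plate 1 or RANKL plates 1 or 3 left 94, 102 and 104. Ifit3 was at 339, 31.2 and 211 CPM in RANKL and 0 and 0 in RANKL+CSRM617, at least 15-fold lower. All 6 tested interferon genes passed downwards (median log2 fold change -4.05, or -3.76 with the gene at 0 set to its bound, beside -0.0045 for all genes). The other wells had the same order for Ifit3, at 22.9, 52.6 and 53.2 CPM in RANKL and 2.00 (1 UMI) and 0 in RANKL+CSRM617. Ahnak and Chmp3 were at 0 as well, at least 11.7-fold and 10.0-fold lower with 3 UMIs over the group as the floor, yet over all plates of the tables they had 7287 and 4634 UMIs in RANKL and 21 and 39 in RANKL+CSRM617. They were nearly absent from the second table in every kind of well, so those differences are between tables and not within the Fabp1-high class. Hsd17b13 was lower by a log2 fold change of -4.0 in the Fabp1-high wells of RANKL+CSRM617, and it was at 5.99 and 13.2 CPM in the other wells there against 199 to 240 in RANKL, while Gstm3 differed by -0.09 and Fabp2 by -0.89. Higher in RANKL+CSRM617 were Reg3b, by 4.73, and the satellite-like models Gm10800, Gm10801 and Gm10717, by 3.00, 2.89 and 2.51, which were higher still in the other wells there. With such models left out 167 genes passed, and without the wells rich in them 178 did, both settings chosen after seeing the data. Of 7 tested carbohydrate genes 4 were lower (median -1.34).

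The same cut on later plates found few wells. In RANKL, 22.5% of wells were Fabp1-high on day 0, then 4.34%, 1.72%, 1.85%, 1.52% and 1.43% on days 1 to 5, 0 of 773 on day 6, which allows up to 0.388%, and 0.891%, 0.248% and 0.156% on days 7, 8 and 9. In RANKL+CSRM617, 14.8% were Fabp1-high on day 0, then 2.89%, 0.8% and 1.54% on days 1 to 3, and none on days 4, 5 and 6, where the limits are 4.48%, 1.79% and 2.78%. Every day has plates of its own, so each day's share carries the spread between plates, shown as points in the plot by day.

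**Figure D5:**
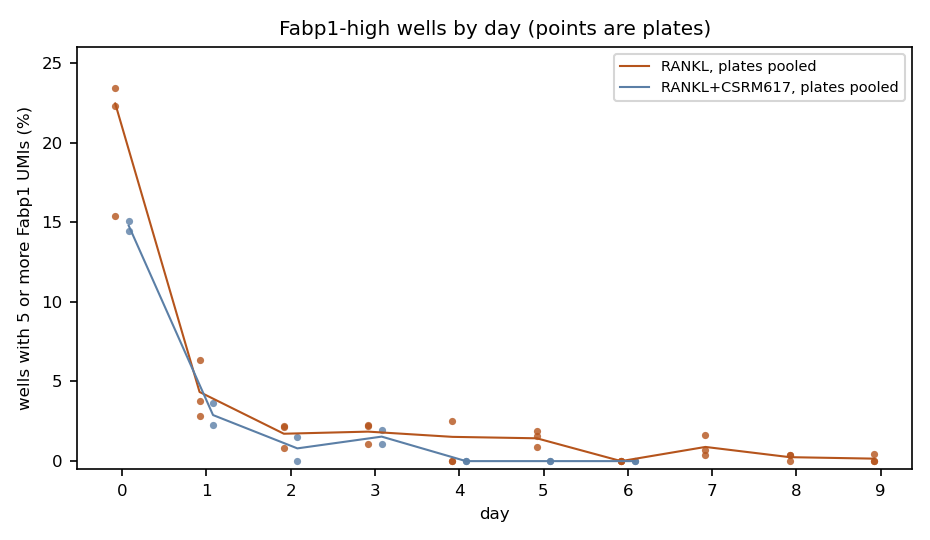
Percent of wells with 5 or more Fabp1 UMIs (vertical axis) by day (horizontal axis) in the RANKL and the RANKL+CSRM617 tables, with 1 point per plate and lines through the pooled shares. Day 0 stands highest in both tables, at 22.5% and 14.8%, and later days lie below 5% when pooled.

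On day 3 of RANKL 12 Fabp1-high wells on 2 plates allowed a test against the 104 of day 0 plates 1 and 3, the plates with at least 5 such wells; day 0 plate 2 with 4 wells and a day 3 plate with 3 wells were left out of this fit. Of 3430 genes 158 (4.61%) passed, 97 (2.83%) higher and 61 (1.78%) lower on day 3. DESeq2 called 57, thinned wells 18, no filter on low counts 15, and the count was 50 and 46 without day 0 plates 1 and 3. Guca2b, uroguanylin, an enterocyte hormone that controls salt secretion, went from 29.6 and 91.8 CPM on day 0 to 3329 and 3781 on day 3, with no overlap. In the other wells it went from 8.72 and 4.57 CPM to 952 and 1083, so the day difference was not limited to the Fabp1-high wells. Guca2a, guanylin, was at 0 and 0 CPM on day 0 and at 645 and 952 on day 3, at least 145-fold higher. All 5 tested M cell genes passed upwards (median log2 fold change 3.79 beside -0.09 for all genes), among them Anxa5, a membrane-binding annexin, by 5.00. Anxa5 went from 34.9 and 33.1 CPM to 871 and 908 in the other wells of the same plates. Marcksl1 rested on 1 UMI on day 0, with a ratio of 187 (exact 95% interval 30.5 to 7682). Of 9 carbohydrate genes 7 passed upwards (median 1.43), while 3 of 5 lipid droplet genes (-2.03) and 4 of 17 genes of fatty acid oxidation (-0.94) passed downwards. Acot1, a cytosolic thioesterase that frees fatty acids, fell from 847 and 937 CPM to 34.0 (1 UMI) and 103 (4 UMIs), and in the other wells it went from 325 and 346 to 50.0 and 73.1. Hsd17b13 was lower on day 3 by a log2 fold change of -2.34, and went from 217 and 238 CPM to 9.72 and 12.5 in the other wells. Both were thus lower there too. Gstm3 and Fabp2 differed by -1.10 (adjusted p = 0.064) and -0.73 (adjusted p = 0.2).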

How the data were processed

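Each sample is a plate of single cells, and the values are UMI counts per gene and well, which the authors deposited in 1 table per arm, unnormalized. Kallisto, bustools, Seurat 3.1.5 and the GRCm38 build are listed in the submitters' processing notes; for kallisto and bustools no version is given in the sources used here. Wells with fewer than 1000 UMIs were left out. The RANKL table holds 21099 genes and that of RANKL+CSRM617 9257, with 9230 in both, so a gene can be missing from the second.

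UMIs were summed per class (Fabp1 5 or more, or fewer) and plate with Fabp1 left out, so cells were not treated as replicates. Sums were tested with edgeR 4.0.16 (R 4.3.3; TMM scaling, filterByExpr, glmQLFTest, plate as a block within tables because both classes come from the same plate) with Benjamini-Hochberg adjustment at 0.05 over all genes tested. Single values used exact permutation tests (scipy 1.17.1). DESeq2 1.42.0, other thresholds, scalings and filters, thinning to 1000 UMIs and leaving out each plate were alternatives. The edgeR fit of each comparison was tried on simulated counts with known changes. The Fabp1-high wells, gene lists and tests were chosen with earlier results of these data known.

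Named genes are the 15 largest rises and 10 largest falls in RANKL (genes called, log2 CPM averaging at least 5, 1 direction on all plates), up to 4 members of each list, 5 a direction between tables, 8 a direction on day 3, and fixed markers. A few of them are not reported here. The RefSeq promoter table (GRCm38.p6) gave 1 promoter for each marker gene. Full-length proteins were not used here.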

Additional observations from a re-analysis of the deposited data

Results flagged for a closer look

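The difference between Fabp1-high and other wells was itself different between the tables for 10 genes named by the rule, in edgeR's quasi-likelihood test of the interaction with Benjamini-Hochberg adjustment. Values are log2 differences in RANKL+CSRM617 minus those in RANKL. They were 3.73 for Reg3b, 3.11 for Reg3a, 2.93 for Krt20, 2.66 for Rdh7, a retinol dehydrogenase, and 2.57 for Tff3. Lower differences in RANKL+CSRM617 were -7.28 for Strbp, an RNA-binding protein with 0 UMIs in the RANKL+CSRM617 Fabp1-high wells, so that this fitted value is no bound, -2.19 for Ly6e, -2.16 for Olfm4, -1.54 for Gm10801 and -1.04 for Gm10800. Reg3b kept its call without either RANKL+CSRM617 plate and with wells thinned to 1000 UMIs, but stood at 1.99 (adjusted p = 0.245) without the RANKL well of the other class that held 43 of its 60 UMIs, a setting chosen after seeing the data, and at 3.43 (adjusted p = 0.0647) without RANKL plate 3. Gm10801 and Gm10800 are satellite-like models, and they stood at -0.57 and -0.23 without the wells rich in such models, a setting chosen after seeing the data.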

How the results depend on the processing

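Directions of named genes held in most settings. For the 127 named genes called in RANKL, 2045 of 2168 values kept direction and call over 18 settings, 123 lost the call and 0 reversed. For the 108 named genes called in RANKL+CSRM617, 1608 of 1795 did, 185 lost the call and 2 reversed. For the 11 named genes called in the difference between arms, 54 of 167 values lost the call. Most named genes were picked for large changes, so these counts do not stand for all genes called.

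Counts of genes depended on depth and plates. DESeq2 gave 989, 222, 14, 72 and 57 genes for Fabp1-high against other wells in RANKL and in RANKL+CSRM617, for the interaction of class and table, for the Fabp1-high wells of the arms, and for day 3 against day 0. Thinning to 1000 UMIs gave 387, 219, 9, 37 and 18 in that order, and no filter on low counts gave 15 for day 3. Leaving out 1 plate at a time gave 763 to 2687, 307 to 732, 3 to 46, 94 to 169 and 46 to 182. Without the plate block, that is with the pairing of classes on a plate ignored, the counts were 1455 in RANKL and 780 in RANKL+CSRM617. No replicate block was fitted between arms or days, where plates of 1 number are not said to share a culture and the fit of days holds fewer than 2 shared numbers. The day 3 comparison with 10 or more Fabp1 UMIs was not run, because fewer than 2 day 3 plates held 5 such wells.

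Reversals were few, and the cause was not tested. In RANKL Hnf4a reached -0.097 (library size only) and -0.014 (Fabp1 10 or more), and Dpp4 ran from -0.23 to 0.58 over single plates left out. Acat2, near 0 throughout, reached -0.10 (DESeq2), -0.23 (library size only), -0.050 (no block), -0.020 (no filter), -0.038 (Fabp1 scaled to depth), -0.063 (DESeq2 size factors), -0.31 (thinned), -0.014 (Fabp1 10 or more) and -0.018 (2000 UMIs), and ran from -0.11 to 0.067 with single plates left out. In RANKL+CSRM617 Hnf4a reached 0.016 (Fabp1 10 or more) and 0.094 (Fabp1 3 or more). With single plates left out there, the fits also held the 3 RANKL plates. In them Slc3a2 ran from -0.089 to 1.30, Tff3 from -5.35 to 0.39, Hnf4a from -0.39 to 0.060 and Acat2 from -0.74 to 0.014. In the interaction Tff3 reached -1.12 without wells with goblet transcripts and Lyz1 1.03 when thinned, and with single plates left out Tff3 ran from -2.02 to 3.83, Lgr5 from -0.23 to 0.87 and Mki67 from -0.67 to 1.88. Gstm3 in Fabp1-high wells of the arms ran from -0.86 to 0.43.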
